A study of Lolium arundinaceum with 6 samples.

Results

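In leaves of tall fescue seedlings under heat, 144 of 179680 assembled unigenes were raised after 2 h and had dropped below their control level by 12 h. A unigene is a transcript cluster assembled from the reads without a genome, and unigenes that share the number after the letter c were placed in the same cluster by the assembly. The 144 were chosen by their levels in CPM, the usual unit of counts scaled to the library total. Both libraries of heat 2 h had to reach 1.5 times the higher control and 2 CPM, both libraries of heat 12 h had to lie under 0.5 times the lower control, and each control had to hold at least 1 count. The shape is therefore the choice itself, and the levels and folds below describe it without testing it.

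Leaf RNA came from wild-type seedlings raised for 10 days on MS medium (variety Fire Phoenix II), which were left untreated (control, labelled 0 h) or placed at 38 °C for 2 h or 12 h. Each of the 3 conditions had 2 biological replicates, and the same 2 control libraries stand behind both time points. Library totals ran from 6349776 to 7891567 counts, so that 3 counts in 1 library equal 0.380 to 0.472 CPM. The controls carry no later time, so hours of heat and time of day cannot be told apart, and in whole leaves fewer cells of a type cannot be told apart from less RNA per cell.

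Plants meet a sudden rise in temperature with a fast transcriptional response led by heat shock factors, which switch on chaperones that hold and refold damaged proteins. Many of these transcripts peak early and then settle as chaperones bind the factors again, while ubiquitin ligases mark damaged proteins for the proteasome. Tall fescue is a polyploid, outcrossing grass, so near-identical gene copies can share reads or be split over several unigenes.

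Most unigenes raised at 2 h did not take this course. Of the 51874 unigenes with a count in each control, 4287 met the 2 h condition, and 2527 of these (58.9%) still had both 12 h libraries at 1.5 times the higher control or more. A further 1616 (37.7%) lay between, and the 144 make up 3.36%. The opposite shape, with both 2 h libraries at or under the lower control divided by 1.5 and both 12 h libraries above 2 times the higher control and at 2 CPM or more, was met by 25 unigenes. Among unigenes that met the 2 h condition, the mean at 2 h was a median of 2.21 times the control mean in the 144, 3.80 times in those kept up and 2.51 times in those between. Their median control levels were 2.40, 2.82 and 2.24 CPM. The groups were split by the same control libraries that stand under these ratios, so nothing is read from the differences.

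**Figure D1:**
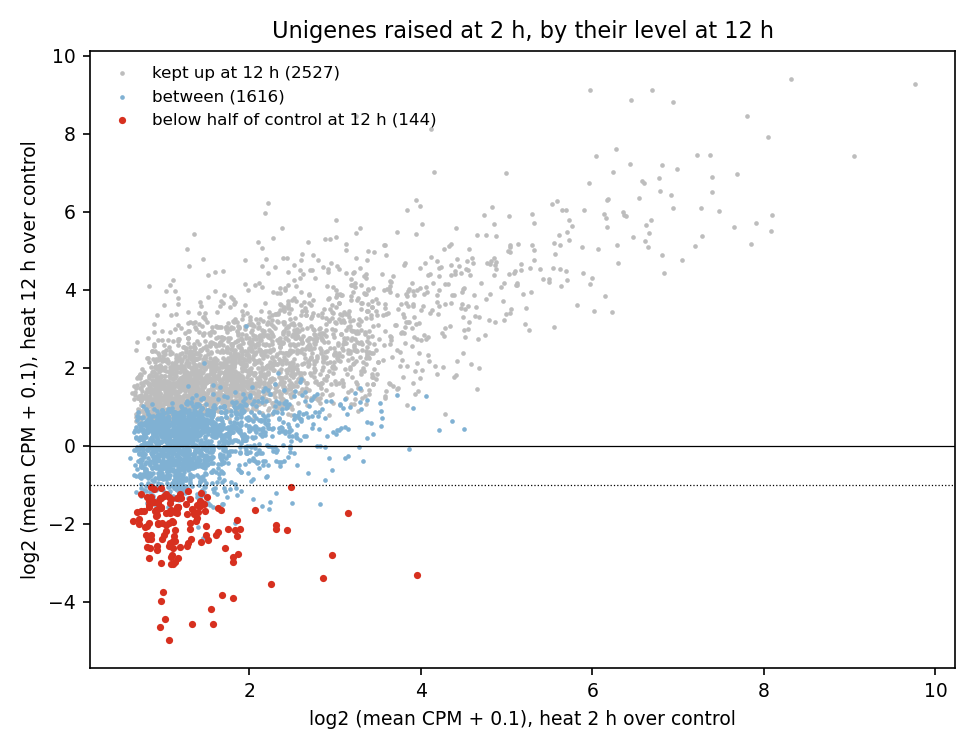
Each point is 1 of the 4287 unigenes that met the 2 h condition. The horizontal axis is the log2 ratio of heat 2 h to control and the vertical axis that of heat 12 h to control, both from group means of CPM with 0.1 CPM added, and the dotted line marks 0.5 times control. The 144 (red) sit at the lower left, the 2527 kept up (grey) at the upper right and the 1616 between (blue) around the line of no difference.

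The summed level of the 144 was 1562 and 1684 CPM in the controls, 3940 and 3737 at 2 h, and 396 and 444 CPM at 12 h. The 3 conditions do not overlap in this sum, as the choice requires. The 7 most abundant unigenes hold 55.2% of it in the controls, 54.9% at 2 h and 59.6% at 12 h. Most of the others were scarce. The median member had 2.28 and 2.53 CPM in the controls, 6.01 and 5.56 at 2 h, and 0.601 and 0.623 CPM at 12 h, close to the level of 3 to 5 counts. In the control mean 104 lay under 5 CPM, 19 reached 10 CPM and 10 reached 50 CPM.

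The median drop from control was larger than the median rise, which the thresholds of 0.5 and 1.5 already favour. The mean at 2 h was at least 2 times control in 101 of the 144, at least 3 times in 27 and at least 4 times in 10, with a highest ratio of 16.2. At 12 h the mean was at most 0.25 of control in 81 and at most 0.1 in 21, and the median ratio was 0.224. Against the level reached at 2 h, the 12 h level was lower by a median factor of 10.2 (4.0 to 264) over the 137 with any count at 12 h.

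All 144 passed the filter for low counts before the fit in edgeR, which the 2 CPM asked of both 2 h libraries makes certain. Of them 31 hold 10 counts or more in every library. A unigene was called at a fold change of 2 and a Benjamini-Hochberg adjusted p of 0.05. Of the 144, 48 were called higher at 2 h, where 15.1% of the 28005 unigenes tested were called higher. At 12 h 124 were called lower, against 23.3% of all tested, and all 144 were called lower at 12 h than at 2 h, against 19.6%. Both calls together, higher at 2 h and lower at 12 h than control, were made for 39 of the 144 and for 56 unigenes in all (0.2%), of which 17 are not among the 144. These contrasts were used to choose the 144, so nothing is read from the counts. With DESeq2 22 were called higher at 2 h, beside 3051 over all unigenes. In edgeR fewer of the 144 were called at 2 h when either control library was left out, and fewer over all unigenes too. At neither time were 11 of the 144 called.

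On the log2 scale of the fit, the median difference of the 144 was 0.98 at 2 h (0.50 to 3.83) and -2.02 at 12 h (-7.12 to -0.99), beside 0.05 and 6.4e-05 over all unigenes tested. The choice used library totals, under which the median of all unigenes tested was 0.20 at 2 h and -0.11 at 12 h. With CPM scaled by TMM, the scaling of the fit, 75 unigenes met the conditions, all of them among the 144. RLE size factors left 68. Leaving out 1 library loosens the conditions, and 277 unigenes met them without control replicate 1, 280 without control replicate 2, 360 and 408 without heat 2 h replicate 1 or 2, and 201 and 286 without heat 12 h replicate 1 or 2.

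**Figure D2:**
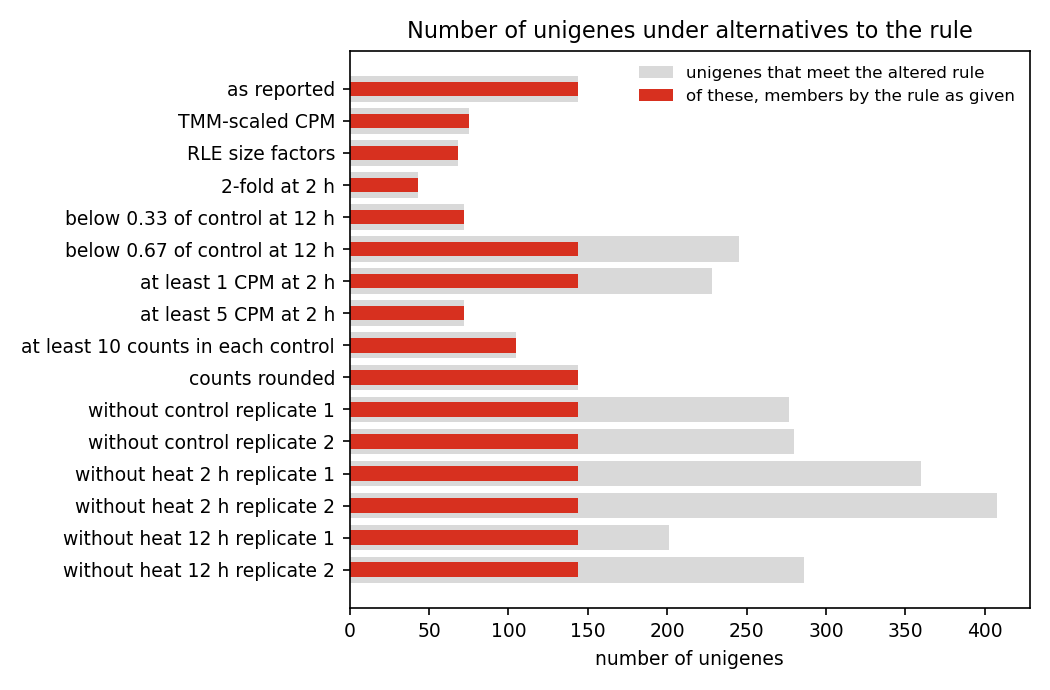
Bars give the number of unigenes (horizontal axis) that met the conditions as given (144) and under each change of scaling, threshold or libraries, and the red part of each bar those that are among the 144. Scaling by TMM or RLE left 75 and 68, thresholds moved the number between 43 and 245, and leaving out a library gave 201 to 408.

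The unigenes nearest the thresholds show how small the margins are. The 2 h libraries of c146074_g1 reached 1.501 times the higher control, with controls of 2.05 and 2.03 CPM and 2 h libraries of 3.84 and 3.07 CPM. Just outside, c148185_g1 reached 1.495 times although it was far more abundant, at 39.4 and 41.3 CPM in the controls, 82.6 and 61.7 at 2 h and 8.27 and 6.78 CPM at 12 h. At the level threshold, c129491_g1 had 2.05 CPM in its lower 2 h library and c150349_g3, outside, had 1.92 CPM. At 12 h, c131381_g1 lay at 0.496 of the lower control and c143069_g3, outside, at 0.502. Both are scarce, so a single read more or fewer would move either across the line.

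The 10 most abundant of the 144 have no name in the annotation used here, so only their levels can be given. The highest, c151365_g1, had 299 and 288 CPM in the controls, 740 and 717 at 2 h and 109 and 119 CPM at 12 h. Its log2 difference was 1.16 at 2 h (standard error 0.14) and -1.25 at 12 h (standard error 0.14), both past the thresholds of the call. In c151148_g1 the controls held 113 and 133 CPM, the 2 h libraries 329 and 340 CPM and both 12 h libraries 22.4 CPM. It also passed at both times, with 1.29 (standard error 0.15) and -2.35 (standard error 0.16). The deepest drop among these 10 was that of c151331_g1, which went from 89.9 and 110.0 CPM without heat to 305 and 295 CPM at 2 h and then to 3.31 and 4.98 CPM at 12 h. Its 12 h libraries hold 22 and 36 counts, against 571 and 868 in the controls, and the log2 difference was 1.43 at 2 h (standard error 0.17) and -4.47 at 12 h (standard error 0.22).

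These 3 were the only ones of the 10 called at 2 h. The next, c143420_g1, had 102 and 118 CPM in the controls, 236 and 203 at 2 h and 6.01 and 10.2 CPM at 12 h, a 12 h level of 0.0736 of control. For c151894_g1 the levels were 84.3 and 98.5 CPM, 189 and 199 CPM, and 33.5 and 37.4 CPM. It passed at 2 h without control replicate 2 (log2 difference 1.04, against 0.94 with all libraries). Control levels of c154135_g1 were 83.0 and 107 CPM, those at 2 h 180 and 177 CPM and those at 12 h 23.3 and 31.6 CPM. Its libraries agree most closely at 2 h, the time at which replicates of all unigenes differed most.

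Replicates differed more in the next 3. In c148716_g1 the 2 h libraries held 175 and 132 CPM, the controls 85.0 and 79.6 CPM and the 12 h libraries 37.3 and 39.4 CPM. It was the only 1 of the 10 not called lower at 12 h (log2 difference -0.99, standard error 0.18), and was called without control replicate 2 (-1.03). The 2 h libraries of c142389_g1 were also apart, at 140 and 90.7 CPM, above controls of 52.3 and 53.9 CPM and 12 h libraries of 9.62 and 11.5 CPM. It passed at 2 h only when heat 2 h replicate 2 was left out (1.25, against 0.98), among the libraries left out in turn. In c142264_g1 the order of the 2 h libraries was the opposite, 94.0 and 126 CPM, beside controls of 60.0 and 55.8 CPM and 12 h libraries of 8.12 and 11.4 CPM. The last, c141308_g3, had the smallest 2 h ratio of all 144 (1.57), with 54.6 and 57.8 CPM in the controls, 88.0 and 88.1 at 2 h, and 14.9 and 14.7 CPM at 12 h. It, the 3 just described and c154135_g1 no longer met the conditions when CPM were scaled by TMM.

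**Figure D3:**
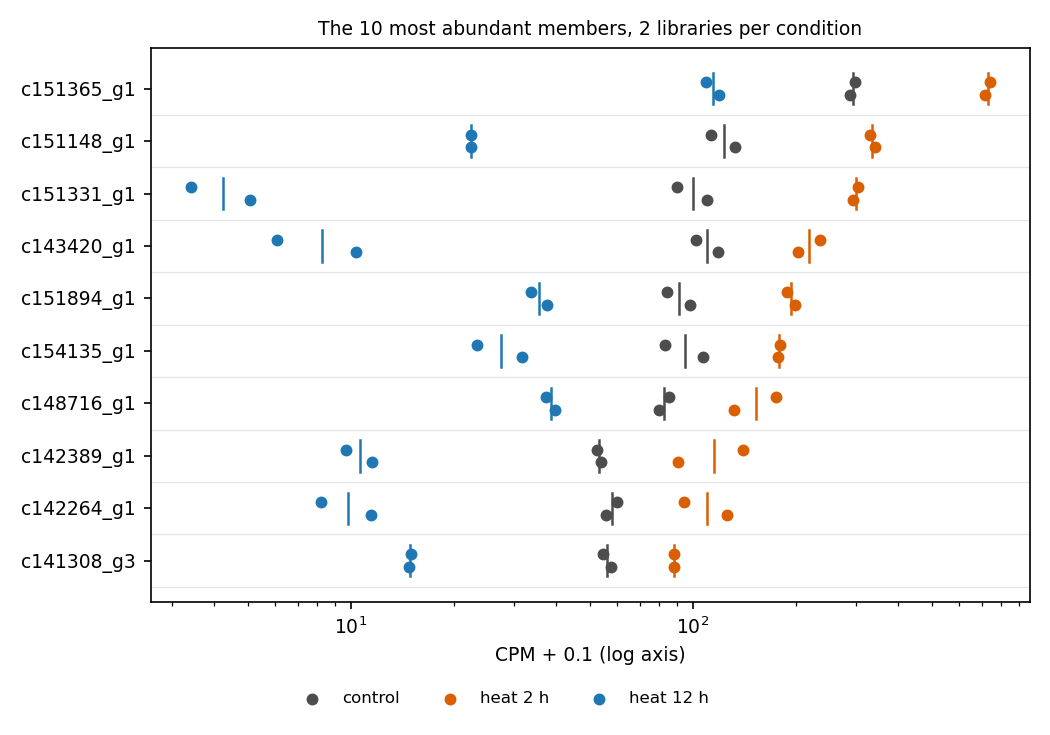
Levels of the 10 most abundant of the 144 in CPM with 0.1 CPM added, on a log axis, with 1 point per library (grey control, orange heat 2 h, blue heat 12 h) and a bar at the mean of the 2 libraries. In each row the 12 h libraries lie lowest and the 2 h libraries highest, with the widest gap between them in c151331_g1 (305 and 295 against 3.31 and 4.98 CPM).

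Over the 19 unigenes with a control mean of 10 CPM or more, the SD of the log2 ratio between replicates was 0.203 in the controls, 0.341 at 2 h and 0.362 at 12 h. Over all unigenes with such a control mean it was 0.221, 0.506 and 0.307. The choice used these same libraries, so nothing is read from the differences in spread.

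Names were at hand for 13 of the 144 (9.03%), through their best Arabidopsis or rice match. The share was 11.2% over all unigenes that met the 2 h condition and 15.2% in those kept up at 12 h. Of the 1616 between, 85 had a name. The parts of the tables used name only 1947 unigenes and mostly list those that the study itself called changed, from these very libraries, so a name is not independent of the measurements. All 13 were called lower at 12 h than in either the controls or heat 2 h, and 6 were called higher at 2 h. Over all 1861 named unigenes tested, 469 were called higher and 378 lower than control at 2 h. At 12 h these numbers were 828 and 799, and the calls of single families given below stand beside them. The choice used the same contrasts, so nothing is read from the calls of the 13. When CPM were scaled by TMM, 8 of the 13 still met the conditions, and the 5 that did not are c142962_g2, c152861_g2, c138038_g2, c147045_g1 and c147075_g1.

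Among metabolic genes, a member of the glyoxalase I family (c146959_g1) reached the highest multiple of control of the 13. Glyoxalase I joins methylglyoxal, a toxic by-product of sugar breakdown, to glutathione so that it can be removed. It had 6.61 and 9.504 CPM in the controls, 66.8 and 60.3 at 2 h and 0.902 and 1.25 CPM at 12 h. Summed counts at 2 h were 7.76 times control per library size (95% counting interval 6.40 to 9.49), and at 12 h 0.132 times (0.0714 to 0.226). Of 3 unigenes with a glyoxalase match tested, 2 rose at 2 h, and at 12 h 1 rose and 2 fell. A unigene matching LAG1 homologue 3 (c147045_g1), a ceramide synthase that builds the lipid backbone of sphingolipids, had 2.205 and 2.41 CPM in the controls, 3.71 and 4.68 at 2 h, and 0.451 and 0 CPM at 12 h. It rests on 14 and 19 control counts and did not pass at 2 h (log2 difference 0.70, standard error 0.46).

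The most abundant named unigene, c133482_g1, matches an Arabidopsis protein of unknown function (AT1G27290.2). Its levels were 18.4 and 24.96 CPM in the controls, 76.1 and 76.4 at 2 h, and 2.41 and 2.91 CPM at 12 h. It rose by 1.66 at 2 h (standard error 0.19) and fell by 2.91 at 12 h (standard error 0.25) on the log2 scale.

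By the words of their matches, 4 of the 13 belong to the ubiquitin system, which tags proteins for breakdown and removes the tags. RING and U-box proteins act mostly as ubiquitin ligases, and 2 of them are in the group. The first, c130104_g1, had 5.51 and 8.36 CPM in the controls, 15.2 and 15.5 at 2 h, and 0.902 and 0.692 CPM at 12 h. It fell by 3.0 at 12 h (standard error 0.41), and at 2 h its log2 difference of 0.98 did not pass, though it did without control replicate 2 (1.31). The second, c130355_g1, had 2.83 and 3.29 CPM, 9.34 and 6.44 CPM, and 0.601 and 1.25 CPM. Its calls (1.21 at 2 h, standard error 0.37, and -1.59 at 12 h, standard error 0.49) rest on few counts. The 2 h call was lost without control replicate 1 (1.08), control replicate 2 (1.31) or heat 2 h replicate 1 (0.91), and the 12 h call without control replicate 2 (-1.47) or heat 12 h replicate 1 (-1.17).

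The other 2 are placed in this system only by the words of their Arabidopsis matches. A protein with a ubiquitin interaction motif (c137574_g2), by a weak match whose rice counterpart is annotated as a peptidyl-prolyl isomerase, had 3.15 and 2.79 CPM in the controls, 8.83 and 5.71 at 2 h, and 0.752 and 1.25 CPM at 12 h. It passed at both times (1.15 and -1.43). Neither call held without control replicate 1 (1.21 and -1.36) or control replicate 2 (1.04 and -1.51), nor the 2 h call without heat 2 h replicate 1 (0.79) and the 12 h call without heat 12 h replicate 1 (-1.12). For c152861_g2 the Arabidopsis match is described as related to ubiquitin-specific proteases, and the rice match only as an expressed protein. This unigene had 3.15 and 1.90 CPM, 5.76 and 5.12 CPM, and 0.451 and 0.277 CPM. It fell by 2.62 at 12 h (standard error 0.60), and its 2 h difference passed only when heat 2 h replicate 2 was left out (1.06, against 0.98), of all libraries left out in turn.

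Among 349 named unigenes of the ubiquitin system 100 met the 2 h condition, of which 81 were kept up, 15 lay between and 4 are among the 144. Over all named unigenes that met it, 384 of 482 were kept up, 85 lay between and 13 are among the 144, so the shares were close. For RING and U-box proteins alone these numbers were 34, 29, 3 and 2. Of 144 RING and U-box unigenes tested, 27 rose and 18 fell at 2 h, and 65 rose and 70 fell at 12 h. Over all 1861 named unigenes tested, 469 rose and 378 fell at 2 h, and 828 rose and 799 fell at 12 h, so the 12 h shares were close. Of 21 with a ubiquitin protease or ubiquitin interaction match, 8 rose at 2 h, and 6 rose and 12 fell at 12 h.

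Transposon-like unigenes supplied another 4. Retrotransposons copy themselves through RNA, with a gag protein that packs the RNA and a reverse transcriptase that turns it into DNA. Both c155976_g1 and c142862_g1 best match the same Arabidopsis DNAse I-like protein (AT1G43760.1) and the same rice retrotransposon protein, and the matches do not say whether an element is active. The first had 6.77 and 9.12 CPM in the controls, 32.6 and 34.7 at 2 h, and 2.56 and 2.35 CPM at 12 h. It rose by 1.92 at 2 h (standard error 0.23) and fell by 1.59 at 12 h (standard error 0.29). The second, c142862_g1, had 0.787 and 2.53 CPM, 14.2 and 11.3 CPM, and 0 and 0.138 CPM. That is 25 counts in both controls together, 188 at 2 h and 1 at 12 h, a 12 h ratio of 0.0410 with a 95% counting interval of 0.001 to 0.251.

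A unigene with a retrotransposon gag match (c142962_g2) had 4.09 and 5.58 CPM in the controls, 9.08 and 9.66 at 2 h, and 1.65 and 1.80 CPM at 12 h. Its call at 12 h (-1.37, standard error 0.36) was lost without control replicate 2 (-1.12), and it did not pass at 2 h (0.79, standard error 0.30). The reverse transcriptase-related c138038_g2 had 2.52 and 2.91 CPM, 5.12 and 4.83 CPM, and 0.301 and 0.415 CPM, and it fell by 2.75 at 12 h (standard error 0.55). Of 57 transposon-like unigenes that met the 2 h condition, 44 were kept up and 9 lay between. Among unigenes with the same DNAse I-like match as c155976_g1, 19 met it, of which 17 were kept up and 2 are the ones described. Of 45 with that match tested, 21 rose and 3 fell at 2 h, and 37 rose and 7 fell at 12 h.

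Regulators of transcription and RNA gave the last pair. NOT1 (c144783_g1) is the scaffold of the CCR4-NOT complex, which shortens the poly(A) tails of messenger RNAs and so starts their decay. Its levels were 15.6 and 14.3 CPM in the controls, 28.7 and 30.4 at 2 h, and 5.71 and 4.01 CPM at 12 h. It fell by 1.51 at 12 h (standard error 0.25) and did not pass at 2 h (0.83, standard error 0.21). Of 5 CCR4-NOT unigenes tested, 1 fell at 2 h and 4 fell at 12 h. A basic helix-loop-helix protein (c147075_g1), of a family of DNA-binding transcription factors, had 1.89 and 1.52 CPM, 4.86 and 3.07 CPM, and 0.150 and 0.138 CPM. Each 12 h library holds 1 count of it, and its 2 h difference (1.08, standard error 0.43) did not pass with all libraries but did with heat 2 h replicate 2 left out (1.36). Of 8 basic helix-loop-helix unigenes tested, 4 rose at 2 h, and 5 rose and 3 fell at 12 h.

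**Figure D4:**
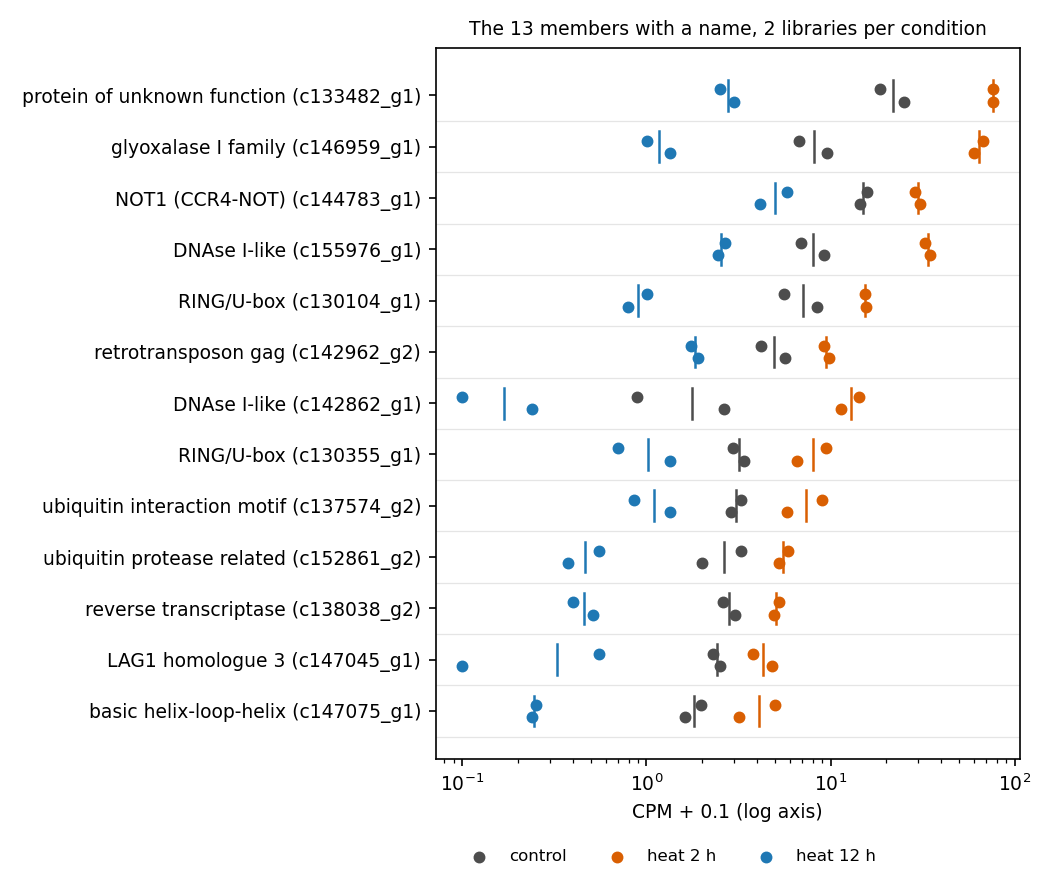
Levels of the 13 named unigenes in CPM with 0.1 CPM added, on a log axis, with 1 point per library (grey control, orange heat 2 h, blue heat 12 h) and a bar at the mean of the 2 libraries. The 3 conditions do not overlap in any row, as the choice requires, and the glyoxalase I family member runs from 0.902 and 1.25 CPM at 12 h to 66.8 and 60.3 CPM at 2 h.

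In other families no named unigene met all conditions. An alpha/beta hydrolase matching a rice lipase (c155747_g1), singled out after its values were seen, came close, with 19.4 and 31.05 CPM in the controls, 71.3 and 66.7 at 2 h, and 11.4 and 11.3 CPM at 12 h. It was called at both times (1.30, standard error 0.22, and -1.04, standard error 0.24) but its 12 h libraries lay above 0.5 times the lower control. Of 37 named heat shock factors and chaperones 27 met the 2 h condition, 26 were kept up, 1 lay between and none is among the 144. In that family 29 rose and 1 fell at 2 h, and 32 rose and 4 fell at 12 h. Its median log2 difference was 5.47 at 2 h and 5.21 at 12 h. The study's list of genes strongly induced at both times, a source of names here, holds heat shock genes. Nothing is therefore read from the counts of this family. Of 135 kinases and phosphatases 25 met the 2 h condition, of which 19 were kept up and 6 lay between. Of 24 unigenes of DNA replication and cell division, which mark the growing base of a leaf, 7 met it, with 3 kept up and 4 between. The study's lists of brassinosteroid, melatonin, auxin and ABA genes, with 23, 9, 72 and 29 named unigenes, hold none of the 144 either. With few unigenes named, these counts of 0 do not show that a family lacks the shape.

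The largest rise, chosen here after its values were seen, was that of the unnamed c137448_g1. It had 1.73 and 2.79 CPM in the controls, 38.9 and 34.2 at 2 h, and 0 and 0.277 CPM at 12 h, the last being 2 counts. Its 2 h mean was 16.2 times control and its 12 h mean 0.0612 times. Of the 10 unigenes at 4 times control or more at 2 h, each had a control mean under 10 CPM and 3 have a name. The lowest 12 h ratio above 0 was that of c138494_g1, also unnamed and chosen after its values were seen. It had 4.09 and 6.34 CPM in the controls, 12.0 and 9.95 at 2 h, and 0 and 0.138 CPM at 12 h, a single count.

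In 7 of the 144 neither 12 h library held a count, and in 18 more 1 of the 2 did not. All 7 are unnamed, with 5 to 34 counts in both controls together. The most abundant at 2 h was c118615_g1, whose controls held 1.42 and 3.17 CPM and whose 2 h libraries held 6.14 and 5.71 CPM. Against 3 counts over both 12 h libraries, which equal 0.216 CPM, it was at least 10.6-fold lower at 12 h than in the controls. For c115163_g1, with 2.36 and 2.41 CPM in the controls, the bound was at least 11.03-fold lower. In c143815_g2 the controls held 5 counts in all, and the bound was only at least 1.61-fold lower. All 7 were called lower at 12 h in edgeR, c143815_g2 included, whose fitted log2 difference of -4.41 (standard error 1.63) depends on the prior count of the fit.

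The assembly offers a property that the choice did not use, the other unigenes of the same cluster, which can be variants or copies of the same gene and can share reads. The 144 fall into 141 clusters. No other unigene stands in the cluster for 76 of them, and 48 have a partner with 30 counts or more over the 6 libraries, which gives 63 partners, 57 of them not among the 144. Both 2 h libraries lay above both controls in 27 of these 57 (47.4%), beside 39.9% of all 32447 unigenes with as many counts. Both 12 h libraries lay below both controls in 34 (59.6%, beside 43.2%), and both at once held for 11 (19.3%, beside 7.79%). As shared reads cannot be separated here, these shares are given as a description without a test.

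Of the 63 partners 6 are themselves among the 144, 1 was kept up, 8 lay between and 48 did not meet the 2 h condition. The 6 make 3 pairs. In the most abundant pair c151706_g1 had 39.5 and 47.8 CPM in the controls, 87.0 and 91.0 at 2 h, and 13.4 and 13.01 CPM at 12 h. Its partner c151706_g3 had 2.52 and 2.66 CPM, 6.65 and 4.68 CPM, and 0.301 and 0.277 CPM. The remaining pairs are c137045_g2 with c137045_g3 and c140182_g1 with c140182_g6, all without a name.

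Unigenes of a cluster can also end on different sides of control. The controls of c139973_g2 held 1.10 and 0.887 CPM (7 counts each), the 2 h libraries 5.37 and 5.27 CPM and the 12 h libraries 0.301 and 0 CPM. Its partner c139973_g1 also rose and then fell, but stayed above control at 12 h. It had 0.945 and 1.14 CPM in the controls, 13.05 and 12.3 at 2 h, and 3.31 and 4.01 CPM at 12 h. Summing all unigenes of a cluster, 31 of the 65 clusters with more than 1 unigene met all conditions, 48 met that at 2 h, and in 59 both 12 h libraries lay below both controls. In the clusters that did not, the full course was seen in single unigenes and not in the cluster sum.

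Genes that follow the time of day and leaf markers differed between the same libraries. LHY (c155757_g1), a clock gene of the morning, was at 9.46 CPM in the control mean, 6.98 CPM at 2 h and 1.65 CPM at 12 h, while the evening gene FKF1 (c150815_g1) stood at 2.99, 6.69 and 48.4 CPM. GI, another clock gene of the later day, was at 70.4, 48.0 and 183 CPM in c153713_g1. Of 4 clock unigenes 2 rose and 2 fell at 12 h. The photosystem I subunits PSAO (c133500_g3) and PSAK (c132391_g1) went from 5096 and 5204 CPM in the controls to 1117 and 1716 CPM at 12 h. PSBS (c137256_g1) was at 1930.2 CPM in the controls, 840 at 2 h and 904 CPM at 12 h. It was called lower at 2 h (log2 difference -1.35) and not at 12 h (-0.98). The CAB1 unigene c138665_g1 (0.0787 and 15.7 CPM) and the PSAK unigene c178872_g1 (0.0634 and 3.37 CPM) were scarce without heat and higher at 12 h. Of the other CAB1 unigenes, c150075_g2 (110 and 22.4 CPM) and c166098_g1 (12.2 and 0.878 CPM) were called lower than control at both times. Called lower at 2 h only was c109639_g1 (20.8, 11.2 and 16.8 CPM), and c88020_g1 was scarce throughout (1.30, 0.896 and 0.150 CPM). Of 14 photosynthesis unigenes tested 1 rose and 7 fell at 2 h, and 3 rose and 8 fell at 12 h. The part of time of day or of leaf cells in the 12 h levels of the 144 was not tested.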

How the data were processed

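The deposited table holds expected counts that the authors estimated for unigenes assembled with Trinity, with no scaling between libraries. The methods name RSEM, while the submitters' processing notes name TopHat2 2.0.12, Bowtie2 2.2.3, HTSeq 0.6.1 and DESeq 1.18.0. Of all values 0.157% are not whole, and counts were rounded for the fits.

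CPM were counts over library totals. The 6 libraries were scaled by TMM, filtered by filterByExpr (minimum count 10) and fitted together with the quasi-likelihood test of edgeR 4.0.16 (R 4.3.3), with a term for each condition, which leaves 3 residual degrees of freedom. The 28005 unigenes tested hold 97.7 to 98.4% of the counts. Benjamini-Hochberg adjustment ran over all of them, and the code was tested on simulated counts. Standard errors come from the F statistic. P-values cover only the spread between replicate libraries, and exact counting intervals and the floor of 3 counts cover counting error only.

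Named are every unigene of the 144 with a match in the parts of the study's supplementary annotation that were used. The 10 with the highest mean CPM, those next to a threshold, and the clock and leaf markers are described as well. Unigenes described for 0 counts at 12 h or for their cluster were picked after their values were seen. The 144, the lists and the rule for names were chosen with earlier results of these data known. No sequence was used.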

Additional observations from a re-analysis of the deposited data

Results flagged for a closer look

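All 144 unigenes were called lower at 12 h than at 2 h in edgeR, which the way they were chosen makes nearly certain. Among the clock genes, heat at 12 h and at 2 h also differed by the direct edgeR test for LHY (c155757_g1, log2 difference -1.81), FKF1 (c150815_g1, also called ADO3, 3.11) and both unigenes matching GI (c153713_g1, 2.198, and c142108_g1, -1.63), the last from 2.43 to 0.653 CPM. Among leaf markers it differed for the photosystem I subunits PSAO (c133500_g3, -1.43) and PSAK (c132391_g1, -1.05, and c178872_g1, 7.72) and for 1 unigene matching the chlorophyll-binding protein CAB1 (c138665_g1, 6.02). The most abundant CAB1 unigene, c150075_g2, had control, 2 h and 12 h means of 110, 47.1 and 22.4 CPM, and its difference between 12 h and 2 h (-0.81) was not called, nor were those of c109639_g1 (0.88) and c166098_g1 (0.45). The rises of c178872_g1 and c138665_g1 start from 0 and 0.256 CPM at 2 h, so their size depends on the prior count of the fit.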

How the results depend on the processing

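The number of unigenes with this course was 75 with CPM scaled by TMM (2.24% of those that met the 2 h condition) and 68 with RLE size factors. It was 43 when a 2-fold rise was asked, 72 and 245 at 0.33 and 0.67 of control, and 228 and 72 at 1 and 5 CPM. Leaving out each library gave 201 to 408, or 4.69 to 6.67% of the 2 h condition, since fewer libraries must agree. Calls at 2 h numbered 82 of the 144 with library totals alone, 73 with no minimum fold, 22 with DESeq2 and 22 to 57 with a library left out. With a library left out, the number of calls moved in each comparison, both among the 144 and over all unigenes. Asking for 10 counts in every library left 31 of the 144 tested, of which 14 were called at 2 h and all 31 in both other comparisons. Over all unigenes kept by that filter, 2001 were called higher at 2 h, 3026 lower at 12 h and 2514 lower at 12 h than at 2 h. Deviations of same-numbered libraries correlated at -0.05, 0.05 and -0.04 over 9030 unigenes, so no shared deviation was seen. This cannot tell whether the samples were handled in pairs. With the replicate block 45, 115 and 144 were called. For the 23 unigenes of the 144 that are named or most abundant, no called direction reversed in 1007 fold changes under the alternatives run, of which 771 were called in both fits, 191 in neither, 29 gained and 16 lost a call. The choice already set these directions in every library, so nothing is read from the lack of reversals. Fits without a library assume that the lone sample of a group varies like the other groups. With 2 libraries per condition and a median of 8 counts at 12 h, depth limits how well the drop is measured.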
